A study of Mus musculus with 6 samples.

Results

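The nuclear receptor superfamily was examined in MC38 cells, a mouse colorectal cancer line, in libraries labelled as SRC-1 knockouts and in controls. The members were a list of 45 receptor symbols, of which 38 had a row among the 16583 genes of the expression table. Esr2, Pgr, Pparg, Nr1i2, Nr2e3, Hnf4a and Nr0b2 were not analysed here. Of the 38, 22 reached a mean of 1 TPM or more in either group and were taken as expressed (TPM are transcript abundances scaled for transcript length and to a fixed sum). A filter on low counts left 26 members for testing, and the other 12 are given as counts.

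The KOSRC1 group held 3 libraries titled as knockouts of SRC-1, which the gene Ncoa1 encodes, and the KOCtrl group held 3 control libraries. Every culture had been given 100 ng per mL of interferon gamma and harvested after 24 hours, so both groups describe stimulated cells. The labels give neither the way the knockout was made nor whether 1 clone or a pool was used. They do not say that replicates were grown separately, so the spread behind each p-value may be technical. The genotype labels of KOSRC1 replicates 2 and 3 carry the numbers 2 and 3 in place of 1 (KOSRC-2, KOSRC-3), and the titles were followed.

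Libraries held 16329459 to 17207625 expected counts. Ncoa1 stood at 16.7, 10.1 and 16.1 CPM (counts scaled to library depth, with TMM factors) in KOSRC1, against 18.2, 18.5 and 18.0 CPM in KOCtrl. In TPM it stood at 3.72, 1.69 and 3.48 in KOSRC1, against 3.49, 3.42 and 3.48 in KOCtrl. Each KOSRC1 library was below each control in CPM but not in TPM, and edgeR did not call it (log2 fold change -0.35, adjusted p = 0.179). The Ncoa1 mRNA level therefore does not check the labels, and KOSRC1 refers to the label. The paralogs Ncoa2 and Ncoa3 were not called either (adjusted p = 0.39 and 0.818), although without KOSRC1 replicate 2 Ncoa2 was called at a log2 fold change of 0.62 (adjusted p = 7.54e-10). That replicate stood apart, with a correlation of log2 CPM of 0.978 with replicate 1 and 0.981 with replicate 3, while replicates 1 and 3 had 0.996. Colon epithelial markers were close to absent. The table held 9 such genes, of which 0 reached 1 TPM, and their summed level was 0.77 to 1.18 TPM in KOSRC1 and 1.02 to 1.46 TPM in KOCtrl. Epcam and Cdh1, which define epithelium, were at or under 0.04 TPM in every library.

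Nuclear receptors are transcription factors with a zinc finger DNA-binding domain and, in most of them, a pocket for a small lipophilic ligand such as a steroid, a retinoid, an oxysterol or a fatty acid. Ligand binding repositions a helix that then holds the LXXLL motifs of coactivators, and SRC-1 was among the earliest coactivators found in this way. Steroid receptors act mostly as homodimers. Retinoic acid, thyroid hormone, vitamin D, LXR and PPAR receptors pair with a retinoid X receptor, and several orphan receptors act with no known ligand. Only mRNA was measured here, not receptor protein, ligand or binding of SRC-1.

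The 22 expressed receptors covered a wide range of levels. Nr1h2, which encodes the oxysterol receptor LXR beta, was the most abundant at 82.1 ± 2.39 TPM in KOSRC1 and 75.3 ± 2.42 TPM in KOCtrl (SD, n = 3 each). The retinoic acid receptor gene Rarg followed at 55.9 ± 0.821 TPM in KOSRC1 and 66.9 ± 0.608 TPM in KOCtrl. Ppard, which encodes a fatty acid receptor, was at 52.2 ± 2.97 TPM in KOSRC1 and 49.4 ± 3.26 TPM in KOCtrl. Below these 3, the retinoid X receptor gene Rxrb, the orphan receptor gene Esrra, Thra and the glucocorticoid receptor gene Nr3c1 averaged between 20 and 50 TPM over the 6 libraries. In KOCtrl their order was Rxrb, Esrra, Thra and Nr3c1, with Thra at 19.3 to 20.1 TPM and Nr3c1 at 18.01 to 20.7 TPM overlapping. In KOSRC1 it was Thra, Rxrb, Nr3c1 and Esrra, with Thra at 30.9 to 36.0 TPM overlapping Rxrb at 30.5 to 31.3 TPM. Nr3c1, at 18.01 to 35.6 TPM in KOSRC1, overlapped all 3, and its place in the order rests on its low value in replicate 2. A further 6 members lay between 10 and 20 TPM, 4 between 5 and 10 TPM and 5 between 1 and 5 TPM. Expressed members made up 57.9% of the 38, against 66.5% of all genes in the table. Esr1 was the only receptor that reached 1 TPM in one group alone, with a mean of 0.627 TPM in KOSRC1 and 1.47 TPM in KOCtrl. It was also the member closest above the threshold. Closest below it was the mineralocorticoid receptor gene Nr3c2, at 0.63 TPM in KOSRC1 and 0.243 TPM in KOCtrl.

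**Figure D1:**
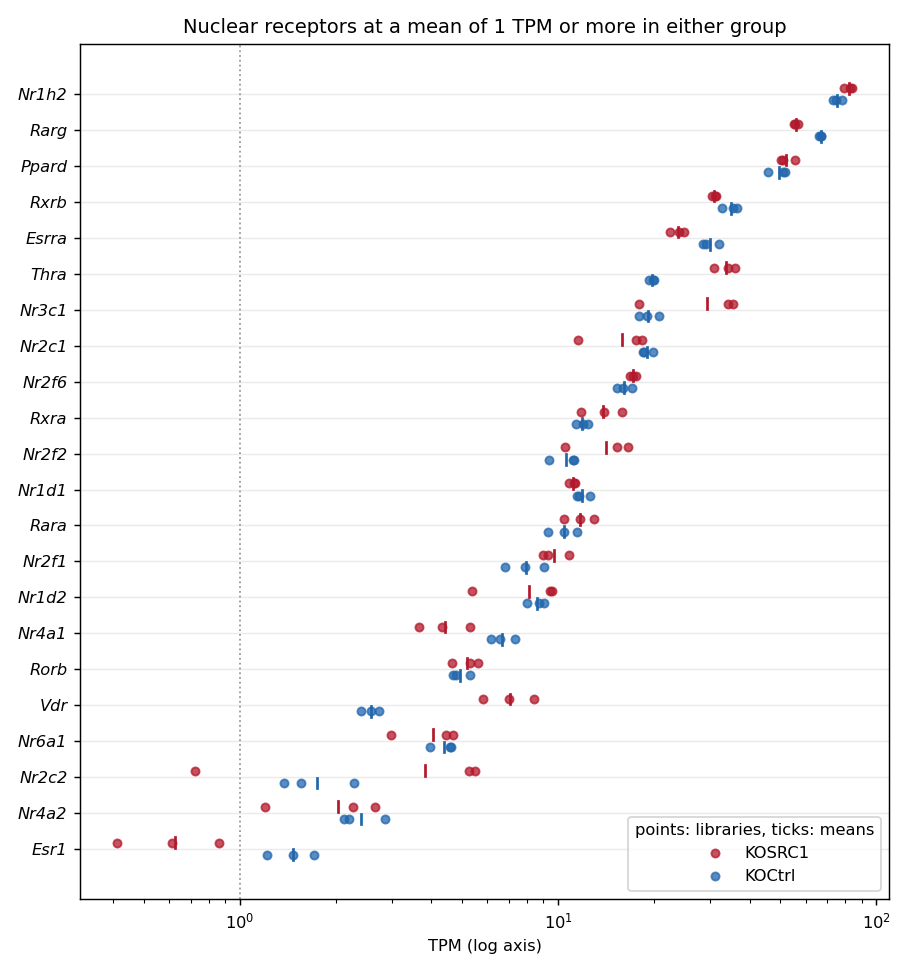
TPM on a log axis for the 22 receptors with a mean of 1 TPM or more in either group, ordered by their mean over 6 libraries. Points are libraries, short ticks are group means and the dotted line marks 1 TPM; Vdr and Thra lie higher in KOSRC1 without overlap, and Nr4a1 and Esr1 lie lower without overlap.

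Between the groups, 9 of the 26 tested receptors were called at an edgeR adjusted p under 0.05, and the direction was split. Nr3c1, Nr3c2, Thra, Vdr and Nr2f2 rose in KOSRC1, and Esr1, Nr4a1, Nr2c1 and Nr5a1 fell. Among all 11656 tested genes 35.7% were called, 17.1% of the tested genes being higher and 18.5% lower in KOSRC1. The receptors' shares, 34.6% called, 19.2% higher and 15.4% lower, were near that background. The receptors' median log2 fold change was 0.03 and that of all tested genes 0.02. In bulk RNA, fewer cells that express a receptor and less of its RNA per cell cannot be told apart. The groups did not overlap in CPM for 13 of the 26, or 50%, against a background of 51.3%. Esr1, Nr3c2, Nr4a1, Nr5a1, Thra and Vdr were called in every alternative fit that tested them. The fit at 10 CPM or more tested only Thra and Vdr of these, and neither limma fit tested Nr3c2 or Nr5a1. Nr5a1 passed the count filter only through its KOCtrl counts, so its call is not independent of the filter. Calls for Nr3c1, Nr2f2 and Nr2c1 had adjusted p-values of 0.0468, 0.0468 and 0.0471 and were lost in 8, 8 and 9 of the alternatives. The summed level of all 38 members was 458, 407 and 449.9 TPM in KOSRC1 and 414, 413 and 429 TPM in KOCtrl, with overlap.

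**Figure D2:**
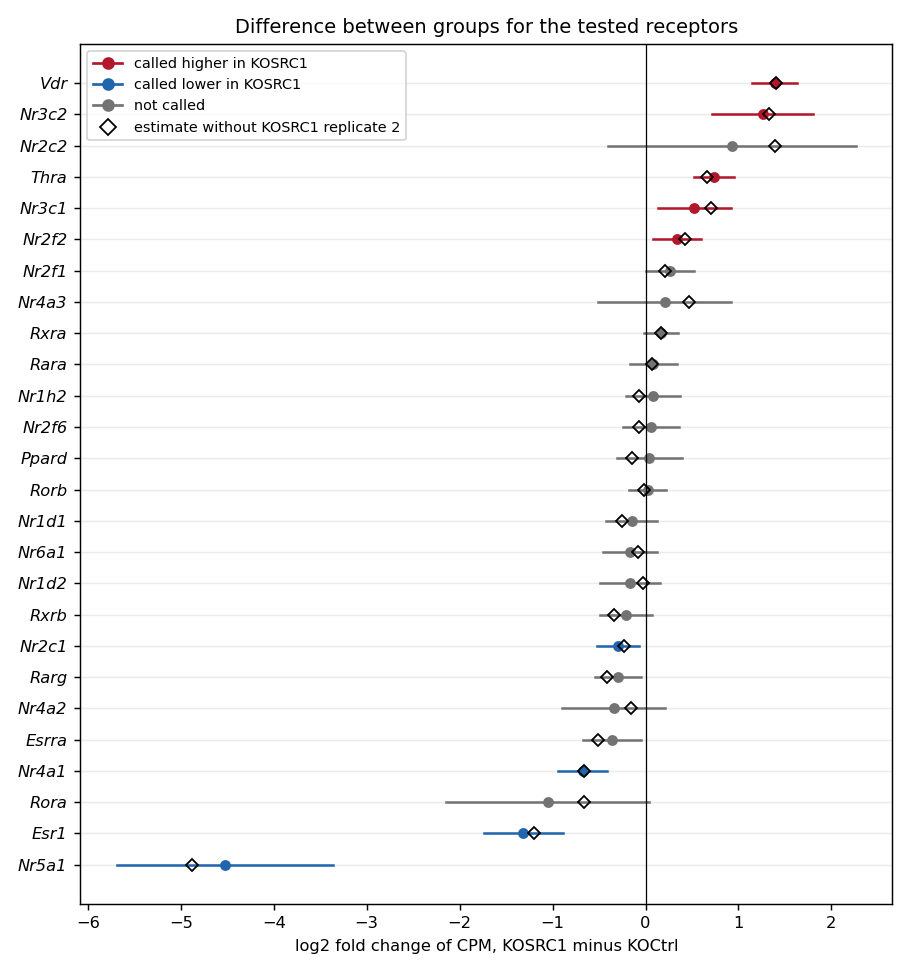
Log2 fold change of CPM, KOSRC1 minus KOCtrl, for the 26 tested receptors. Circles are edgeR estimates with 95% intervals, coloured by call, and open diamonds are estimates without KOSRC1 replicate 2; Vdr at 1.39 and Nr5a1 at -4.53 are at the ends, and the Nr2c2 estimate moves to 1.39 without that replicate.

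Of the steroid receptors, the estrogen receptor gene Esr1 fell and both corticosteroid receptor genes rose. Esr1 (chromosome 10, 4611989 to 5005633, GRCm38.p6) had 0.61, 0.41 and 0.86 TPM in KOSRC1, against 1.47, 1.22 and 1.71 TPM in KOCtrl. All KOSRC1 libraries lay below all controls (log2 fold change -1.32 with SE 0.182, or 2.49-fold lower; edgeR adjusted p = 0.00171). These levels rest on 24 to 36 counts per KOSRC1 library and 66 to 80 per KOCtrl library. Nr3c1, the glucocorticoid receptor gene (chromosome 18, 39410545 to 39519421), had 35.6, 18.01 and 34.3 TPM in KOSRC1, against 20.7, 18.01 and 19.0 TPM in KOCtrl. KOSRC1 replicates 1 and 3 were high and replicate 2 lay among the controls, in TPM and in CPM. The log2 fold change was 0.53 (SE 0.168, 95% interval 0.13 to 0.92, edgeR adjusted p = 0.0468). Without KOSRC1 replicate 2 it was 0.70 with an adjusted p of 3.61e-12, and leaving out any 1 of the other 5 libraries lost the call (adjusted p = 0.104 to 0.149). Nr3c2 encodes the mineralocorticoid receptor, which also binds glucocorticoids with high affinity. It had 0.74, 0.46 and 0.69 TPM in KOSRC1 and 0.2, 0.32 and 0.21 TPM in KOCtrl, with no overlap (2.4-fold higher, log2 fold change 1.26, SE 0.231, adjusted p = 0.00562). Even after this rise Nr3c1 was 39.2 to 49.7 times as abundant as Nr3c2 in KOSRC1 libraries, against 56.3 to 104 times in KOCtrl libraries, per transcript length.

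Of the estrogen-related receptors only Esrra, an orphan receptor gene of oxidative metabolism, was expressed. It had 23.9, 24.9 and 22.5 TPM in KOSRC1 and 29.1, 28.6 and 32.1 TPM in KOCtrl. The groups did not overlap, but edgeR did not call it (log2 fold change of CPM -0.36, SE 0.132, adjusted p = 0.0713). It passed without KOSRC1 replicate 2 (-0.51, adjusted p = 1.93e-07) and after trends over transcript length and GC were taken out of each library (-0.46, adjusted p = 0.00212). Esrrb had 0 counts in KOSRC1 and 3 in KOCtrl, and Esrrg had 17 in KOSRC1 and 36 in KOCtrl.

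Among the retinoic acid receptors, which bind all-trans retinoic acid, Rarg made up 82.5 ± 1.58% of the summed TPM in KOSRC1 and 86.5 ± 1.17% in KOCtrl (SD, n = 3 each). Rarg had 56.8, 55.6 and 55.2 TPM in KOSRC1 and 66.2, 67.3 and 67.2 TPM in KOCtrl. Each KOSRC1 library was lower than each control, in TPM by a wide margin and in CPM by less (95.9, 121 and 95.9 CPM in KOSRC1, against 126, 132 and 127 CPM in KOCtrl). The edgeR test did not call it (log2 fold change -0.30, SE 0.105, adjusted p = 0.0636), whereas limma on log2(TPM + 1) did (-0.26, adjusted p = 0.0169), as did edgeR without KOSRC1 replicate 2 (-0.42, adjusted p = 2.41e-08). Rara had 11.7, 10.4 and 13.0 TPM in KOSRC1 and 9.31, 10.4 and 11.5 TPM in KOCtrl, which overlap (log2 fold change 0.09, 95% interval -0.17 to 0.34, adjusted p = 0.565). Rarb, itself a classical retinoic acid target, had 8 counts in KOSRC1 and 3 in KOCtrl. On the annotation 52.9% of its exonic bases overlap Top2b on the other strand, so even these counts are uncertain.

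The retinoid X receptors, shared partners of the heterodimeric receptors, were represented by Rxrb and Rxra. Rxrb had 30.5, 31.2 and 31.3 TPM in KOSRC1 and 32.7, 35.4 and 36.6 TPM in KOCtrl (log2 fold change of CPM -0.21, SE 0.119, adjusted p = 0.215). Rxra had 15.9, 11.8 and 14.0 TPM in KOSRC1 and 12.0, 11.4 and 12.4 TPM in KOCtrl (log2 fold change 0.16, SE 0.0784, adjusted p = 0.147). The groups were apart for Rxrb in TPM and for Rxra in CPM, and overlapped for Rxrb in CPM and for Rxra in TPM. Neither receptor was called with all libraries. Without KOSRC1 replicate 2 the Rxrb difference was -0.34 (adjusted p = 2.74e-05) and the Rxra difference 0.16 (adjusted p = 0.0238). Rxrg, the form known from muscle and brain, had 1 count in KOSRC1 and 3 in KOCtrl.

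The thyroid hormone receptor gene Thra and the vitamin D receptor gene Vdr both rose. Vdr (chromosome 15, 97854427 to 97908296) had 8.4, 5.82 and 7.01 TPM in KOSRC1, against 2.59, 2.4 and 2.74 TPM in KOCtrl. Its lowest KOSRC1 library was above its highest control (2.62-fold higher, log2 fold change 1.39, SE 0.104, edgeR adjusted p = 0.00014). Leaving out any 1 library kept the log2 fold change between 1.32 and 1.44, and adjusted p-values between 2.13e-12 and 0.00231. Thra (chromosome 11, 98740776 to 98769006) had 36.0, 30.9 and 34.3 TPM in KOSRC1, against 19.3, 19.9 and 20.1 TPM in KOCtrl. The groups were well apart (1.67-fold higher by the edgeR fit, log2 fold change 0.74, SE 0.0907, adjusted p = 0.0011). Thra overlaps the REV-ERB alpha gene Nr1d1 tail to tail over 263 exonic bases, 8.33% of the exonic bases of Thra and 9.67% of those of Nr1d1. The library kit is not stated to mark strand, so reads in that stretch may not have been told apart. Their part in the Thra difference was not tested. The log2 fold change of Nr1d1 was -0.15 (adjusted p = 0.345). Thrb, the other thyroid hormone receptor gene, had 5 counts in KOSRC1 and 12 in KOCtrl.

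The promoter window of Vdr is printed because Vdr had the largest called rise of the family; capitals mark GGGCGG, the GC box bound by Sp1-type factors, searched on both strands. The sequence is from RefSeq (GRCm38.p6, chr15:97908247-97908546, minus strand) and runs 5′ to 3′ from 250 bases before to 50 bases after the start site.
Vdr: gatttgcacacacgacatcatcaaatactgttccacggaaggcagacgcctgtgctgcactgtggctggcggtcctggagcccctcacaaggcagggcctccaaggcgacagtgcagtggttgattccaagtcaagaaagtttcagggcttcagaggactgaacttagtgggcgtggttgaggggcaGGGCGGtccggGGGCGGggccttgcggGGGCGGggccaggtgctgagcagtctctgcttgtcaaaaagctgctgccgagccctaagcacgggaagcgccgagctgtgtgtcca
The window held 3 such boxes, starting at -63, -52 and -36 relative to the start site. Of 32851 mouse promoter windows of the same length, 35.7% held at least 1 GGGCGG and 10.7% held 3 or more. The receptor consensus element AGGTCA was not in these letters on either strand, and 16.3% of all windows held it. A match of letters is a description of the window and not a measured site. Sequences were on hand for 34 of the 38 members.

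Among the lipid-sensing receptors only Nr1h2 and Ppard were expressed, and neither was called. Nr1h2 had 79.4, 84.0 and 82.9 TPM in KOSRC1 and 78.0, 73.3 and 74.7 TPM in KOCtrl (log2 fold change of CPM 0.08, 95% interval -0.21 to 0.37, adjusted p = 0.646). The groups were apart in TPM but overlapped in CPM. Ppard had 50.9, 55.6 and 50.1 TPM in KOSRC1 and 45.7, 51.0 and 51.6 TPM in KOCtrl (log2 fold change of CPM 0.04, 95% interval -0.31 to 0.39, adjusted p = 0.851). Ppard changed sign and passed the test without KOSRC1 replicate 2 (-0.14, adjusted p = 0.0232). Nr1h3, the LXR alpha gene of liver, gut and macrophages, had 2 counts in KOSRC1 and 13 in KOCtrl. Ppara, the PPAR of liver, had 2 counts in KOSRC1 and 4 in KOCtrl. The bile acid receptor gene Nr1h4 had 5 counts in KOSRC1 and 6 in KOCtrl. The xenobiotic receptor gene Nr1i3 had 2.18 expected counts in KOSRC1 and 2.2 in KOCtrl, where 66.1% of the exonic bases overlap Tomm40l on the other strand.

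The REV-ERB genes Nr1d1 and Nr1d2, repressors of the circadian clock, were both expressed and neither was called. Nr1d1 had 11.3, 10.8 and 11.2 TPM in KOSRC1 and 11.7, 12.6 and 11.4 TPM in KOCtrl, and its difference of -0.26 without KOSRC1 replicate 2 was called (adjusted p = 0.00846). Nr1d2 had 9.54, 5.35 and 9.43 TPM in KOSRC1 and 8.7, 7.98 and 9.06 TPM in KOCtrl (log2 fold change of CPM -0.17, SE 0.138, adjusted p = 0.378). Its low value was in KOSRC1 replicate 2. Rorb, which activates at the same elements that REV-ERB proteins repress and is best known from retina and brain, had 5.62, 4.64 and 5.28 TPM in KOSRC1 and 4.76, 4.68 and 5.27 TPM in KOCtrl (log2 fold change of CPM 0.02, 95% interval -0.18 to 0.22, adjusted p = 0.854). Rora stood at 0.25, 0.01 and 0.48 TPM in KOSRC1 and 0.36, 0.19 and 0.38 TPM in KOCtrl, on 2 to 14 counts per library, and was not called (log2 fold change -1.05, adjusted p = 0.119). It was called without KOSRC1 replicate 3 (-1.71, adjusted p = 0.04).

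NR4A receptors are immediate early genes whose proteins have a closed ligand pocket. Nr4a1, also known as Nur77 (chromosome 15, 101253902 to 101274795), fell in KOSRC1. It had 5.27, 3.66 and 4.33 TPM in KOSRC1, against 6.14, 6.57 and 7.3 TPM in KOCtrl. All KOSRC1 values were below all controls (log2 fold change -0.68 with SE 0.113, or 1.60-fold lower; edgeR adjusted p = 0.00371). Nr4a2 had 2.27, 1.2 and 2.65 TPM in KOSRC1 and 2.2, 2.86 and 2.12 TPM in KOCtrl, which overlap (log2 fold change -0.34, 95% interval -0.89 to 0.21, adjusted p = 0.288). Nr4a3 was at 0.36, 0.16 and 0.43 TPM in KOSRC1 and 0.22, 0.24 and 0.26 TPM in KOCtrl (log2 fold change 0.21, 95% interval -0.51 to 0.92, adjusted p = 0.626). Whether Nr4a1 differed in its change from Nr4a2 and Nr4a3 was not tested.

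Nr4a1, like Esr1 and Nr5a1, was called lower in every fit that tested it, and of these only its promoter window is printed. Capitals mark TGCGTCA, a sequence of the CRE and AP-1 kind, searched on both strands. The sequence is from RefSeq (GRCm38.p6, chr15:101266596-101266895, plus strand), 5′ to 3′ over the same span around the start site.
Nr4a1: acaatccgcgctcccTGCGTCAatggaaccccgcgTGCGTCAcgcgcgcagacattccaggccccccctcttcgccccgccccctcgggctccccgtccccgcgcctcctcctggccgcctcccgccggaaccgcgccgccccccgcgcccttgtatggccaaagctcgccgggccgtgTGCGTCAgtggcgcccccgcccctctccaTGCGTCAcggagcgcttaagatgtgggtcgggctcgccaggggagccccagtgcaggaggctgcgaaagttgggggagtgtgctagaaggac
The window held 4 copies, starting at -235, -215, -71 and -42 relative to the start site. This start site lies inside the span of the gene given above and not at its upstream end. Of the 32851 windows 2.12% held the motif at all, and only 1 window, that of Nr4a1, held 3 or more. The motif was chosen with earlier results known, so these shares are a description and no test of rarity. Of the 34 members with a sequence, 1 held it. The Nr4a1 window also held GGGCGG 3 times on the other strand, not in capitals, the same number as the window of Vdr. GGGCGG was in the windows of 19 of the 34 members and in 35.7% of all windows. The 2 shares are unlike, since some members have more than 1 window.

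Orphan receptors of the testicular and COUP groups were all expressed. Nr2f2 (COUP-TFII, chromosome 7, 70351946 to 70366746) had 16.6, 10.5 and 15.3 TPM in KOSRC1 and 11.2, 9.37 and 11.2 TPM in KOCtrl. In CPM the groups did not overlap (43.1, 34.9 and 40.7 CPM in KOSRC1, against 32.6, 28.4 and 32.6 CPM in KOCtrl), and it rose 1.27-fold (log2 fold change 0.34, SE 0.110, adjusted p = 0.0468). Without KOSRC1 replicate 2 the difference was 0.42 (adjusted p = 6.45e-06), and leaving out any 1 of the other 5 libraries lost the call (adjusted p = 0.106 to 0.175). Nr2f1, its close relative, had 10.8, 8.96 and 9.28 TPM in KOSRC1 and 7.88, 6.83 and 9.05 TPM in KOCtrl. It lay higher in CPM without overlap but was not called (log2 fold change 0.26, SE 0.110, adjusted p = 0.101). Nr2f6 had 16.8, 17.2 and 17.6 TPM in KOSRC1 and 17.1, 15.97 and 15.3 TPM in KOCtrl (log2 fold change of CPM 0.06, adjusted p = 0.75). On the annotation 41.2% of the exonic bases of Nr2f6 overlap Ocel1 on the other strand. Ocel1 was at 1.47 CPM in KOSRC1 and 1.12 CPM in KOCtrl, and the part of shared reads was not tested.

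The testicular receptor genes Nr2c1 and Nr2c2, whose proteins pair with each other as repressors, gave unlike values. Nr2c1 had 18.4, 11.6 and 17.6 TPM in KOSRC1 and 18.5, 18.6 and 19.9 TPM in KOCtrl. The lowest value was in KOSRC1 replicate 2, and no KOSRC1 library reached a control. It fell by 0.30 on the log2 scale (SE 0.0961, adjusted p = 0.0471). The call was lost without KOSRC1 replicate 3 or any control (adjusted p = 0.0918 to 0.176) and with RLE in place of TMM scaling (adjusted p = 0.0501). Nr2c2 had 5.48, 0.72 and 5.25 TPM in KOSRC1 and 2.28, 1.38 and 1.56 TPM in KOCtrl. KOSRC1 replicates 1 and 3 lay above every control and replicate 2 below every control. Over all libraries the log2 fold change was 0.93 with a 95% interval of -0.40 to 2.26 (adjusted p = 0.239), and without replicate 2 it was 1.39 (adjusted p = 5.34e-10). On the annotation 43.5% of the exonic bases of Nr2c2 overlap Mrps25 on the other strand, so reads of both genes may mix. Mrps25 was at 45.8 CPM in KOSRC1 and 62.6 CPM in KOCtrl (log2 fold change -0.45, adjusted p = 0.0394), and the part of shared reads in the Nr2c2 values was not tested.

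The last group held Nr6a1, expressed in germ cells and embryos, and Nr5a1, which encodes steroidogenic factor 1. Nr5a1 had 1, 1 and 0 counts in KOSRC1, against 21, 17 and 17 in KOCtrl. The summed counts were 2 in KOSRC1 and 55 in KOCtrl, 27.1-fold lower in KOSRC1 (95% counting interval 7.16 to 230.0, covering counting error only; edgeR adjusted p = 0.000686). Its level was low in both groups, at 0.00 to 0.03 TPM in KOSRC1 and 0.49 to 0.61 TPM in KOCtrl, so it was not among the expressed receptors. Nr6a1 lies beside Nr5a1 on chromosome 2 (38723369 to 38926461, against 38692656 to 38714542 for Nr5a1). It had 4.43, 2.99 and 4.67 TPM in KOSRC1 and 3.97, 4.57 and 4.62 TPM in KOCtrl (log2 fold change -0.17, 95% interval -0.45 to 0.12, adjusted p = 0.322). Hnf4g had 1 count in KOSRC1 and 5 in KOCtrl, Nr5a2 had 0 in KOSRC1 and 1 in KOCtrl, and Nr0b1 had 0 in KOSRC1 and 4 in KOCtrl. Over the 12 untested receptors together, counts summed to 43.2 in KOSRC1 and 92.2 in KOCtrl, and no library exceeded 0.33 TPM for any of them.

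The median log2 fold change of all tested genes on the chromosomes that carry the 9 called receptors ran from -0.04 (chromosome 2) to 0.11 (chromosome 10, which carries Esr1 and Nr2c1). The part of local or chromosome-wide shifts in the receptor differences was not tested.

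Several receptors differed within KOSRC1, between replicate 2 and the other libraries. Nr2c2 lay 2.39 lower in replicate 2 than in the mean of replicates 1 and 3 on the log2 CPM scale, Nr3c1 0.62 lower and Nr1d2 0.46 lower, whereas Ppard lay 0.49 higher, Esrra 0.42 higher and Nr1h2 0.40 higher. Over the 26 tested receptors this deviation had a Spearman correlation of 0.763 with the GC content of the transcript and of -0.493 with its length. Over 11421 tested genes with a known transcript the values were 0.501 and -0.381. These points are genes of the same 3 libraries and are not independent. Vdr (-0.04) and Nr4a1 (-0.03) hardly deviated. Without replicate 2, 7 receptors were called higher and 9 lower in KOSRC1. Of all tested genes 69.6% were then called, 34.6% higher and 35.0% lower. With trends over length and GC taken out, 5 were called higher and 7 lower, where 45.8% of all tested genes were called, 21.4% higher and 24.4% lower. Esrra, Rarg and Rxrb were then added to the lower ones.

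**Figure D3:**
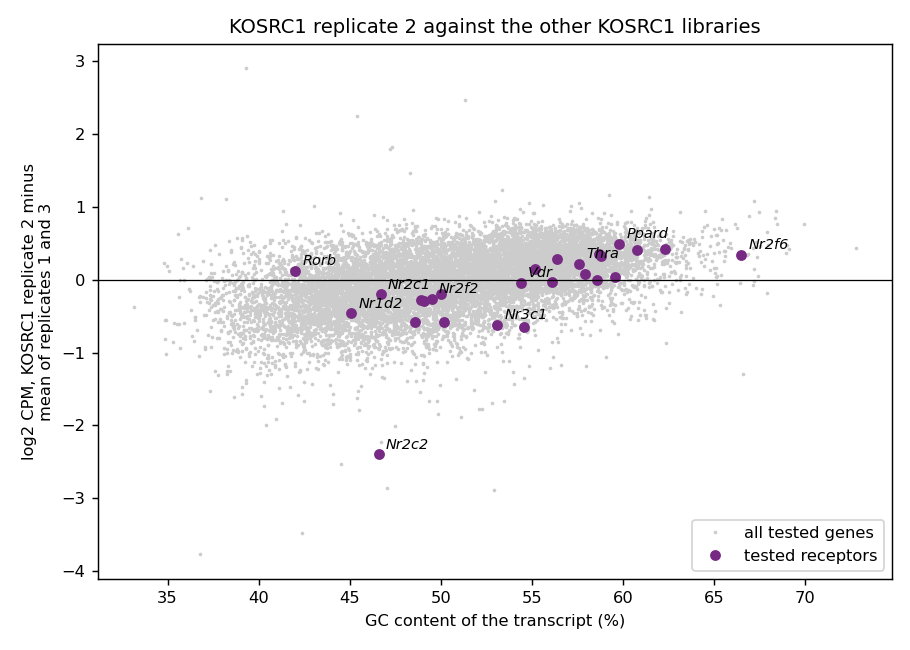
Log2 CPM of KOSRC1 replicate 2 minus the mean of KOSRC1 replicates 1 and 3, against the GC content of the transcript, for the 26 tested receptors and for all tested genes with a known transcript. Nr2c2 lies lowest of the receptors at -2.39 and Ppard highest at 0.49.

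Genes that act on the receptors were examined next, and their counts are to be read against the 35.7% of all tested genes called, 17.1% higher and 18.5% lower. Of 8 corepressor genes, 0 were called by edgeR in either direction, 1 had an unadjusted p under 0.05 and 0 were called by DESeq2 (median log2 fold change 0.01, against 0.02 for all tested genes). Ncor1, which holds histone deacetylase on unliganded receptors, had the smallest p, with 31.0 ± 10.5 TPM in KOSRC1 and 21.9 ± 0.829 TPM in KOCtrl (log2 fold change 0.41, SE 0.155, edgeR adjusted p = 0.0783). Without KOSRC1 replicate 2, 2 corepressor genes were called higher and 2 lower, where 69.6% of all tested genes were called. Ncor1 was then higher by 0.57 (adjusted p = 2.84e-10) and Gps2 was at -0.64 (adjusted p = 9.98e-09). Gps2, a subunit of the same corepressor complex, was also the 1 gene called with trends over length and GC taken out (-0.37, adjusted p = 0.0417). Of 8 chaperones and cochaperones that hold steroid receptors in a ligand-ready state, 3 rose and 2 fell (median 0.05). Dnaja1, an HSP40 protein, rose 1.81-fold, Hsp90ab1 rose 1.41-fold, and the immunophilin gene Ppid fell 1.20-fold.

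Of 8 tested genes of retinoid synthesis, binding and breakdown, 2 rose and 2 fell (median -0.15). Aldh1a1, which oxidises retinal to retinoic acid, had 10 counts in KOSRC1 and 351 in KOCtrl, 34.6-fold lower (counting interval 18.6 to 72.8; adjusted p = 6e-05). It has a close paralog, Aldh1a7, with which reads may be shared. Crabp1, a retinoic acid carrier, had 2 counts in KOSRC1 and 46 in KOCtrl, 22.7-fold lower (counting interval 5.93 to 193; adjusted p = 0.0026). Aldh1a1 and Crabp1 passed the count filter only through their KOCtrl counts. Rdh11, a retinal reductase, rose 1.77-fold, and Cyp26b1, which breaks retinoic acid down, rose 1.90-fold. Of 13 enzymes and transporters for steroid, sterol, thyroid and vitamin D ligands, 9 were in the table and 2 were tested, of which 1 fell. Cyp27b1, which makes the active vitamin D that binds Vdr, was at 0.687 ± 0.321 TPM in KOSRC1 and 1.34 ± 0.317 TPM in KOCtrl (log2 fold change -0.99, SE 0.290, adjusted p = 0.0344).

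Textbook target genes of the expressed receptors went both ways, in a comparison where 35.7% of all tested genes were called, 17.1% higher and 18.5% lower. Of 6 tested retinoic acid receptor targets 2 rose and 1 fell (median 0.08). Tgm2, a transglutaminase, fell 1.504-fold, whereas Cyp26b1 rose 1.90-fold. Of 4 tested LXR targets, Srebf1 rose 1.46-fold, Lpcat3 fell 1.23-fold and 2 were not called (median 0.27). Nr1h2 was the only LXR gene expressed, and the LXR targets Abca1 and Abcg1 were at or under 0.06 TPM in every library. Of 9 tested PPAR targets 4 rose and 2 fell (median 0.14), with Angptl4 rising 6.36-fold and Fabp4 falling 3.35-fold, while Ppard itself was not called. Of 3 tested thyroid hormone and vitamin D receptor targets, Klf9 fell 2.09-fold and Cyp27b1, which active vitamin D represses, fell 1.99-fold. The remaining target, Hr, was not called (log2 fold change 0.46, edgeR adjusted p = 0.16). The median, -0.99, is the Cyp27b1 value, in a list that mixes a repressed target with others. Of 4 tested REV-ERB and ROR targets 2 fell and 2 were not called (median -0.17). Nfil3 fell 3.799-fold and Cry1 fell 1.45-fold. Of 10 tested glucocorticoid receptor targets 2 rose, Cebpd (log2 fold change 0.53, adjusted p = 0.0087) and Dusp1 (0.49, adjusted p = 0.0264), and 5 fell, among them Per1 (-0.70), Klf9 (-1.06) and Tsc22d3 (-0.43). The median was -0.06, and without KOSRC1 replicate 2 the counts were 4 higher and 5 lower. Of all tested genes 69.6% were then called, 34.6% higher and 35.0% lower.

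**Figure D4:**
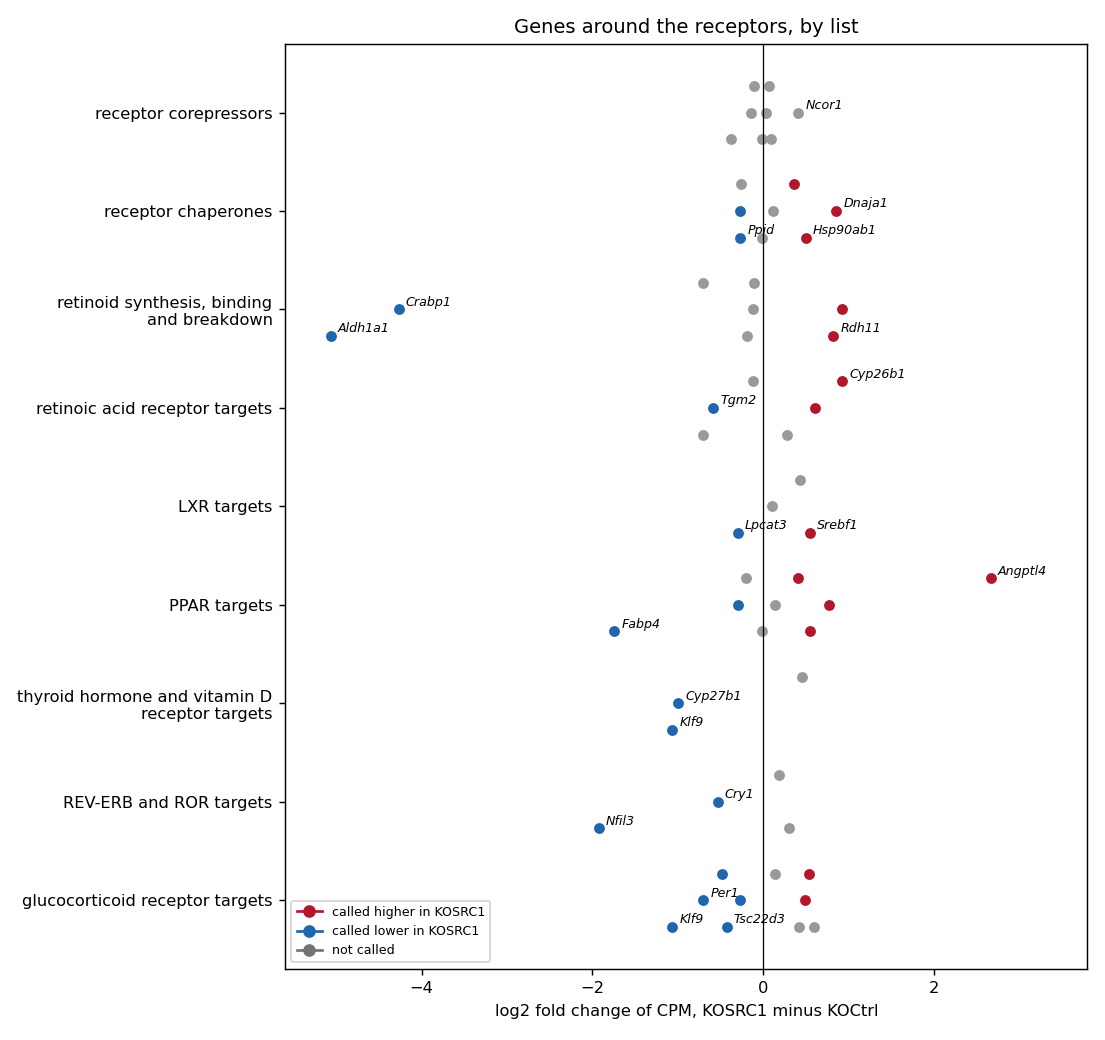
Log2 fold change of CPM, KOSRC1 minus KOCtrl, for tested genes of 9 lists of corepressors, chaperones, ligand enzymes and receptor targets. Each point is a gene, coloured by call, and labelled genes are among those chosen by rule; each list of targets holds both called and uncalled genes, and points are staggered only for legibility.

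Markers of other cell types moved between the groups as well. Among all tested genes 35.7% were called, 17.1% higher and 18.5% lower in KOSRC1. Of 6 tested fibroblast markers 1 rose, Col3a1 at 673 ± 177 TPM in KOSRC1 and 319 ± 25.6 TPM in KOCtrl (SD, n = 3 each; log2 fold change 0.9985, adjusted p = 0.0012). Another 4 fell, among them Col6a3 (log2 fold change -4.39), Dcn (-1.90) and Pdgfrb (-3.08). The summed level of the 8 in the table was 558 to 913 TPM in KOSRC1 and 646 to 721 TPM in KOCtrl. Most of this sum was Col3a1, which rose, and Dcn, which fell. Endothelial markers summed to at most 0.28 TPM in KOSRC1 and 0.22 TPM in KOCtrl. The 6 leukocyte markers summed to 6.18 to 7.43 TPM in KOSRC1 and 14.0 to 16.99 TPM in KOCtrl. Most of this was Cd68 alone, at 5.57 to 6.94 TPM in KOSRC1 and 12.73 to 15.57 TPM in KOCtrl. The untested Csf1r had 15 counts in KOSRC1 and 14 in KOCtrl, and Adgre1 had 3 in each group. Cd68 and Lyz2, the 2 that were tested, fell by 1.21 and 1.65 on the log2 scale, and the pan-leukocyte gene Ptprc was at or under 0.05 TPM in every library. Col1a1, a defining fibroblast gene, was at or under 0.09 TPM. The fibroblast marker Pdgfra was at a mean of 21.16 TPM in KOSRC1 and 18.25 TPM in KOCtrl. It was not called (log2 fold change 0.13, edgeR adjusted p = 0.53). The part of these markers in the receptor differences was not tested.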

How the data were processed

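RNA was sequenced from 6 samples, 3 KOSRC1 and 3 KOCtrl, grouped by their titles. A NEBNext Ultra kit was used for the libraries, per the labels' protocols, and is not stated to mark strand. Per the submitters' processing notes, SAMtools, StringTie and HISAT2 were used with the build GRCm38.p6. The authors deposited estimated counts (expected counts), of which 88.9% are whole, and TPM and FPKM were computed by the authors, per the file headers. Which program counted reads is not stated there.

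Expected counts were rounded and tested over the whole table with edgeR 4.0.16 in R 4.3.3 (filterByExpr with minimum count 10 and minimum total count 15, TMM, robust quasi-likelihood, two-sided, Benjamini-Hochberg over 11656 genes). A gene was called at an adjusted p under 0.05. Levels are TPM, and fold changes and standard errors are on CPM, KOSRC1 over KOCtrl. Exact binomial intervals on summed counts cover 95% of counting error. The tests were checked on simulated data that held no outlying library, so that check does not cover the spread due to KOSRC1 replicate 2.

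Members, gene lists, promoter motifs and the printed promoters were chosen with earlier results of these data known. All 45 members were accounted for, and from each list up to 3 called genes with the smallest adjusted p were named, or else the gene with the smallest p. Some genes that this rule names are not reported here. Genes named to complete a small count, Abca1, Abcg1 and the cell type markers named outside this rule were chosen after their values were seen. Coordinates are from RefSeq GRCm38.p6, to which all 38 members matched by identifier; exon overlaps, transcript length and GC content are from GENCODE M21 on the same build.

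Alternatives were DESeq2 1.42.0, limma 3.58.1 on log2(TPM + 1) and log2(TPM + 0.1), upper-quartile and RLE scaling, testing genes with few counts too, testing only genes at 10 CPM or more on average, a replicate block, removal of length and GC trends (splines with 4 degrees of freedom, length known for 98.0% of tested genes), and leaving out each library.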

Additional observations from a re-analysis of the deposited data

How the results depend on the processing

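The count of 22 expressed receptors moved by less than 1.5 times under every threshold and unit tried, and Ncoa1 was not called in any alternative. Receptors called higher, 5 in all, became 3 with a mean of at least 10 CPM. Of 9030 genes 35.4% were then called, 17.1% higher and 18.3% lower. Both limma fits called 2 receptors higher, where 27.7% of 11025 genes were called, 13.2% higher. With 1 library left out 3 to 7 were called higher, beside 8.79% to 34.6% of tested genes. Receptors called lower, 4 in all, became 1 with a mean of at least 10 CPM, which removes low receptors. They became 7 with length and GC trends removed (24.4% of tested genes lower), also with the replicate block (24.8%). With 1 library left out 3 to 9 were called lower, beside 11.5% to 35.0% of tested genes. Genes called over the whole table numbered 2406 to 8208 without 1 library, against 4157 with all 6, with the highest count without KOSRC1 replicate 2 and the lowest, 2406 to 2576, without a control. The median log2 fold change of tested receptors, 0.03, became -0.19 without a filter on low counts and -0.19 by DESeq2, since both admit receptors with few counts. It was -0.059 with length and GC trends removed, -0.067 when the replicate block was added, and -0.068 to 0.038 without 1 library. Signs turned in uncalled receptors. With length and GC trends removed Rorb was at -0.0023 and Nr2f6 at -0.12, and with the block added they were at -0.018 and -0.12. Without 1 library the ranges were -0.14 to 0.13 for Ppard, -0.068 to 0.17 for Nr1h2, -0.0196 to 0.065 for Rorb, -0.068 to 0.15 for Nr2f6, -0.0026 to 0.47 for Nr4a3 and -0.00083 to 0.15 for Rara; the cause was not tested.

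Samples with the same number deviated together at 0.161, 0.261 and 0.0401 (correlation of deviations from group means across genes). Samples with unlike numbers ran from -0.226 to 0.186. Deviations are centred within each group and so constrain each other, and these values cannot show whether samples were paired. The main fit did not take the numbers as pairs. With the replicate block alone, 5 receptors were higher and 4 lower, Rarg in place of Nr2c1. Of all tested genes 37.2% were then called, 18.0% higher and 19.2% lower. Receptors with few counts per library, Rora and Nr4a3 among them, have wide intervals, so a missed test there does not show equal levels.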
